A study of Mus musculus with 8 samples.

Results

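The genes described here encode 10 carriers that move nutrients, hormones and organic anions across brain capillary endothelium. They were picked by name, and all 10 were found among the 23337 genes of the table. They are the glucose carrier gene Slc2a1, the monocarboxylate carrier gene Slc16a1, the amino acid carrier genes Slc7a5, Slc7a1, Slc38a3 and Slc38a5, the lysophospholipid carrier gene Mfsd2a, and the organic anion carrier genes Slco1c1, Slco1a4 and Slc22a8. The study sequenced ribosome-depleted RNA of cells that had been sorted by flow cytometry as endothelial from whole mouse embryos at E15.5 (embryonic day). In 1 group the pregnant mothers had been gavaged with tamoxifen at E12.5, and in the other they had not. The series describes every animal as Cdh5-CreERT2(PAC);Rosa26fsTRAP, a line with a tamoxifen-inducible Cre under the endothelial Cdh5 promoter and a Cre-dependent TRAP allele at Rosa26, whereas each sample's genotype field reads wild type. If both groups share these alleles, as the series describes, the drug and the recombinase it activates cannot be told apart. The labels list 4 samples per group and do not say whether these came from separate litters, so the tests below measure the spread between libraries, which may be technical.

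The table's header is 1 field short, which leaves the names of its columns ambiguous. Counting the gene name as column 1, columns 3 to 5 are no-tamoxifen libraries and columns 7 to 9 tamoxifen libraries wherever the names are placed. These 6 are numbered within their group in the order of the table, so that column 3 is no_tamoxifen_1 and column 9 tamoxifen_3. Columns 6 and 10 are shown apart. Values are the authors' normalised read counts, here called normalised reads. Reads in genes numbered 12212472 to 19908404 per library, and 1 read was worth about 0.701 to 1.08 normalised reads.

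Endothelial cells of the brain seal the vessel wall with tight junctions, so polar nutrients cross only where a carrier takes them. Slc2a1 encodes GLUT1, which supplies the brain with glucose. Slc7a5 encodes LAT1, which pairs with the product of Slc3a2 and exchanges large neutral amino acids. Mfsd2a takes up lysophosphatidylcholine that carries omega-3 fatty acids and restrains transcytosis. Slco1c1 carries thyroxine. Some of these genes, among them Slc2a1, Slc7a1 and Slc7a5, are also used by many other dividing or blood-forming cells, while Mfsd2a, Slco1c1, Slc38a3, Slc38a5 and Slc22a8 are, among endothelial cells, best known from the brain.

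The upstream sequences of 4 members are given as examples, and they differ in how many CG dinucleotides they hold. They are from RefSeq on GRCm38.p6, which matched 8 of the 10 members, and are written 5′ to 3′ on the gene's strand with CG dinucleotides in capitals. The Slc2a1 sequence is chr4:119108495-119108710 on the plus strand, and stops where GENCODE M21 begins the first exon. The Slc16a1 sequence is chr3:104638414-104638663 on the plus strand. The Mfsd2a sequence is chr4:122961189-122961438 on the minus strand. The Slco1c1 sequence is chr6:141524104-141524353 on the plus strand.
Slc2a1: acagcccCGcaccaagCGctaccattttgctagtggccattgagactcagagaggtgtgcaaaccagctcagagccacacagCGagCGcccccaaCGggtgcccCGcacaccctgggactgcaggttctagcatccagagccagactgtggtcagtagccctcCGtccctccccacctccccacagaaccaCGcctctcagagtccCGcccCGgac
Slc16a1: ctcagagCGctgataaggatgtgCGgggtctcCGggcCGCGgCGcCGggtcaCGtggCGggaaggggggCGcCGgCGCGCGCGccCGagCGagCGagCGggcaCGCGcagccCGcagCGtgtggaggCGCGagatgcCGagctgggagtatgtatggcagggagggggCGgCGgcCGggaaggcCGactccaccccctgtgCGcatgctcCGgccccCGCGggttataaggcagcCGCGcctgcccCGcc
Mfsd2a: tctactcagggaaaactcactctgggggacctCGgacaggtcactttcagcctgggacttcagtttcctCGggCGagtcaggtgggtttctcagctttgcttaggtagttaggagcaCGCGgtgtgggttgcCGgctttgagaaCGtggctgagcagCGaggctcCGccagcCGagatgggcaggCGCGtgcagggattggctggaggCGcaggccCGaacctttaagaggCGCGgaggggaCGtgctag
Slco1c1: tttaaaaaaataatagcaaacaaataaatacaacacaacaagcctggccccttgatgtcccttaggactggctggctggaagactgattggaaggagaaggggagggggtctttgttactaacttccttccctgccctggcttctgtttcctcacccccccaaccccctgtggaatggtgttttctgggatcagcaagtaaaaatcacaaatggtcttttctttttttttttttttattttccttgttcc

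In the 250 bases before the RefSeq start, Slc16a1 held 37 CG dinucleotides, Slc7a1 21, Mfsd2a 17, Slc2a1 13 and Slc38a5 8. Slc22a8 held 1, and the Slco1c1 and Slco1a4 windows held 0. The median over 32851 promoters was 6, with quartiles of 2 and 16. The windows of the organic anion carrier genes were thus below the lower quartile and those of the other 5 genes above the median. Those of Slc16a1, Slc7a1 and Mfsd2a were above the upper quartile. For Slc22a8 and Slc38a5, GENCODE M21 starts the gene 1928 and 248 bases before the RefSeq start. Their windows thus lay inside that gene, except for 2 bases of Slc38a5, and may not be the promoter. The core letters CTTTGA of the TCF/LEF factors, searched on both strands, occurred once, at position -115 of Mfsd2a, and in 13.8% of all promoters. The E-box CACGTG occurred at -200 of Slc16a1 and -30 of Slc38a5, and in 6.02% of all. Matches to GAANNTTC (heat shock elements), TGATGCAA (amino acid response) and CCGGAAG (ETS factors) were not found in these 8 windows, and occurred in 6.69%, 0.79% and 6.91% of all promoters. No matches in these windows overlapped, and a match describes letters only.

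Endothelial genes were present in every sort, together with genes of macrophages. The endothelial cadherin gene Cdh5 was at 1978 to 5201 normalised reads over the 6 libraries and the macrophage receptor gene Csf1r at 7464 to 12229. Of 20 brain endothelial marker genes that are not nutrient carriers, 20 passed the minimum for testing, and the tight junction gene Cldn5 was at 372 to 1245. Both endothelial lists were thus detected throughout. The brain list's genes did not all move alike: 17 of 20 were lowest in tamoxifen_3, but Pglyrp1 was highest there, at 639 normalised reads. Lef1 was at 63.3, 94.0 and 60.9 without tamoxifen and at 342, 293 and 33.7 with it. How far this list reflects brain endothelium was not tested. In these bulk samples fewer cells of a type and less RNA per cell cannot be told apart.

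Per length, the members differed widely in abundance. Normalised reads per kb of exon, over GENCODE M21 exons, were 1152 ± 172 (SD, n = 6 libraries) for Slc7a5 and 456 ± 65 for Slc2a1. They were 169 ± 9.4 for Slc7a1 and 166 ± 17 for Slc16a1. Slc38a5 followed at 52.1 ± 23.2, Mfsd2a at 33.4 ± 17.3 and Slc38a3 at 27.2 ± 12.6, and then Slco1c1 at 11.9 ± 6.2 and Slc22a8 at 7.90 ± 5.06. Slco1a4 was at 0.0646 ± 0.0728. The amino acid exchanger gene thus ranked first on this scale, above the glucose carrier gene in 6 of 6 libraries. Slc7a1 and Slc16a1 did not separate, with Slc7a1 higher in 2 of 6 libraries, and neither did Mfsd2a and Slc38a3, with Mfsd2a higher in 4 of 6. Each other neighbour in the order was higher in 6 of 6 libraries, although the ranges overlapped from Slc38a5 down to Slc22a8.

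**Figure D1:**
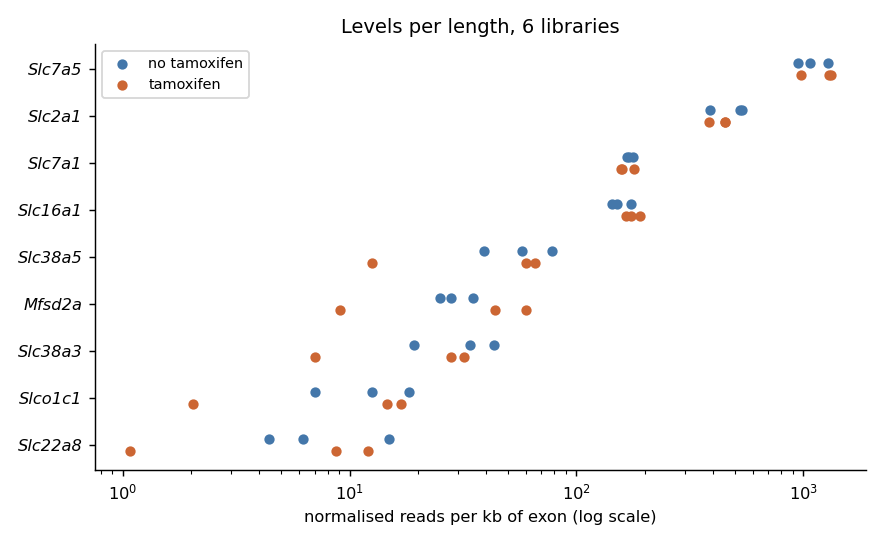
Levels per length of 9 members, in normalised reads per kb of exon on a log axis. Each point is 1 of the 6 libraries, coloured by group. Slco1a4, at 0 in 3 libraries, is not drawn. From Slc38a5 down, 1 tamoxifen point per gene lies far to the left of the others.

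No member passed the test between groups. In limma on log2(normalised reads + 1), adjusted with Benjamini-Hochberg over 13480 genes, 0 of the 9 members tested were higher and 0 lower at an adjusted p of 0.05. Over all genes 6 were higher (0.0445%) and 0 lower (0%). Without adjustment, 0 of 9 members had a limma p under 0.05, where all genes gave 9.01%, and the count tests of edgeR and DESeq2 on recovered reads called 0 members each. The groups overlapped for each of the 9, where 13.9% of all genes had groups that did not overlap. The members' log2 fold changes were positive for 2 and negative for 7, with a median of -0.16, against a median of -0.02 over all genes. Without tamoxifen_3 the calls over all genes became 973 higher and 469 lower and the members' median 0.16, with still 0 members called.

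**Figure D2:**
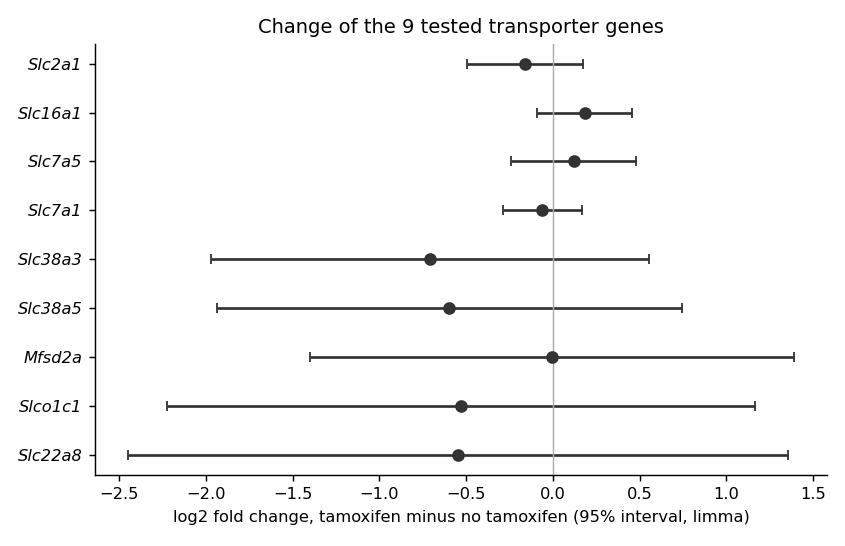
Log2 fold changes (tamoxifen minus no tamoxifen, on the log2(normalised reads + 1) scale) of the 9 tested members, with limma's 95% intervals. All 9 intervals include 0, and those of Slc38a3, Slc38a5, Mfsd2a, Slco1c1 and Slc22a8 are wider than those of the first 4 genes.

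Fuel carriers came first in the order of roles. Slc2a1, on chromosome 4 at 119108711 to 119137983 on the plus strand of GRCm38, was at 1844, 1879 and 1361 normalised reads without tamoxifen and at 1579, 1585 and 1348 with it. The tamoxifen libraries lay inside or just under the other group's range. The log2 fold change was -0.16 ± 0.15 (SE, 95% interval -0.49 to 0.17, limma adjusted p = 0.759). It was -0.31 without no_tamoxifen_3, where limma's unadjusted p was 0.0314 and the adjusted p 0.429. Annotated antisense genes, Gm12867 and Gm12868, overlap Slc2a1, and the sources used here do not say whether counting used strand. The same holds for Gm20388, which overlaps Slc7a5.

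Slc16a1, on chromosome 3 at 104638668 to 104658462, encodes MCT1, which carries lactate, pyruvate and ketone bodies. It was at 633, 772 and 667 normalised reads without tamoxifen and at 841, 772 and 734 with it, so the groups shared a value near 772. Its log2 fold change of 0.18 ± 0.12 (SE, 95% interval -0.09 to 0.45) had the lowest p of the members, at a limma adjusted p of 0.654. Basigin, from Bsg, brings MCT1 to the membrane, and embigin, from Emb, does so for related carriers. Bsg had a log2 fold change of 0.06 ± 0.10 (SE, limma adjusted p = 0.882) and Emb -0.19 ± 0.15 (limma adjusted p = 0.699).

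The amino acid carriers of the SLC7 family were abundant and even. Slc7a5, on chromosome 8 at 121881150 to 121907694, was at 4767, 3973 and 3526 normalised reads without tamoxifen and at 3624, 4802 and 4933 with it. High and low libraries occurred in both groups, and the log2 fold change was 0.12 ± 0.16 (SE, 95% interval -0.24 to 0.48, limma adjusted p = 0.845). Its partner Slc3a2 was at 3524, 3499 and 3271 without tamoxifen and 2688, 3106 and 3711 with it. That gave -0.13 ± 0.13 (SE, limma adjusted p = 0.784). In tamoxifen_1 and tamoxifen_2 the partner was below each no-tamoxifen library. Slc7a5 lay within that group's range in tamoxifen_1 and just above it in tamoxifen_2. In tamoxifen_3 both genes were above it.

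Slc7a1, which encodes the cationic amino acid carrier CAT1 for arginine and lysine, was the steadiest member. It lies on chromosome 5 at 148327410 to 148399904. Its values were 1970, 1935 and 2041 normalised reads without tamoxifen and 2076, 1825 and 1813 with it, a highest-to-lowest ratio of 1.14 over the 6 libraries. The log2 fold change was -0.06 ± 0.10 (SE, 95% interval -0.29 to 0.17, limma adjusted p = 0.884).

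The glutamine carriers of the SLC38 family behaved otherwise. Slc38a3 (SNAT3), on chromosome 9 at 107650634 to 107669530, was at 228, 178 and 101 normalised reads without tamoxifen and at 169, 147 and 37.2 with it. Slc38a5 (SNAT5), on chromosome X at 8271133 to 8280179, was at 175, 129 and 87.5 without it and at 148, 134 and 28.1 with it. In both genes tamoxifen_1 and tamoxifen_2 fell within the no-tamoxifen range, and tamoxifen_3 alone lay below it. The log2 fold changes were -0.71 ± 0.55 (SE, 95% interval -1.97 to 0.56, limma adjusted p = 0.710) for Slc38a3 and -0.60 ± 0.59 (-1.94 to 0.74, limma adjusted p = 0.776) for Slc38a5. Without tamoxifen_3 they were -0.02 and 0.16, and in edgeR -0.48 and -0.30.

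Mfsd2a, on chromosome 4 at 122946850 to 122961188 on the minus strand, had tamoxifen libraries on both sides of the no-tamoxifen range, as Slc7a1 did over a far smaller span. It was at 79.0, 62.7 and 56.3 normalised reads without tamoxifen and at 134, 98.8 and 20.3 with it, from 131, 104 and 29 recovered reads. So 2 tamoxifen libraries were above each no-tamoxifen library and 1 was below. The log2 fold change was -0.01 ± 0.61 (SE, 95% interval -1.40 to 1.39, limma adjusted p = 0.998). Without tamoxifen_3 it was 0.81 ± 0.26 (SE), with a limma adjusted p of 0.0573, the nearest any member came to the threshold in the 6 leave-outs. In edgeR with all 6 libraries it was 0.39. In tamoxifen_1 and tamoxifen_2 the 11 mesenchymal markers summed to far more than in the rest of the 6 compared libraries. The range was 2394 to 5085 normalised reads without tamoxifen and 4926 to 90796 with it, and column 6, shown apart, held 458818. None of these markers was at 0 in all 6 libraries, and their part in the Mfsd2a values was not tested.

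The organic anion carriers were the scarcest. Slco1c1 (OATP1C1), on chromosome 6 at 141524368 to 141570177, was at 94.6, 64.8 and 36.5 normalised reads without tamoxifen and at 75.8, 87.4 and 10.5 with it. Slc22a8 (OAT3), on chromosome 19 at 8591254 to 8611835, was at 58.1, 17.3 and 24.4 without it and at 47.1, 34.2 and 4.21 with it. Both were lowest in tamoxifen_3, while the other tamoxifen libraries lay within the no-tamoxifen range. The value of Slc22a8 in tamoxifen_3 rests on 6 reads, with an exact Poisson 95% interval of 1.54 to 9.16 normalised reads, just under the interval of 9.88 to 28.1 of the next lowest library, no_tamoxifen_2. For Slco1c1 it rests on 15 reads, with an interval of 5.89 to 17.4 against 26.9 to 48.4 in no_tamoxifen_3. These intervals cover counting error only. The log2 fold changes were -0.53 ± 0.74 (SE, 95% interval -2.23 to 1.16, limma adjusted p = 0.857) for Slco1c1 and -0.55 ± 0.83 (-2.45 to 1.36, limma adjusted p = 0.872) for Slc22a8. Without tamoxifen_3 both turned positive, at 0.42 and 0.45, and in edgeR they were -0.13 and -0.20.

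Slco1a4 (OATP1A4), on chromosome 6 at 141805440 to 141856199, is a carrier gene of adult brain capillaries that was barely seen in these embryonic sorts. It had 1 read in no_tamoxifen_3, tamoxifen_1 and tamoxifen_3 each and 0 in the other 3, with 0 also in columns 6 and 10. For a count of 0 the exact Poisson 95% interval reached up to 3.201, 3.985 and 3.505 normalised reads in no_tamoxifen_1, no_tamoxifen_2 and tamoxifen_2, for counting error only. It did not reach the mean of 10 needed for testing, so no fold is given. Of its close relatives, Slco1a5, Slco1a6 and Slco1b2 were at 0 in all 6 libraries and Slco1a1 reached 0.95. How reads were divided among these similar genes is uncertain.

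**Figure D3:**
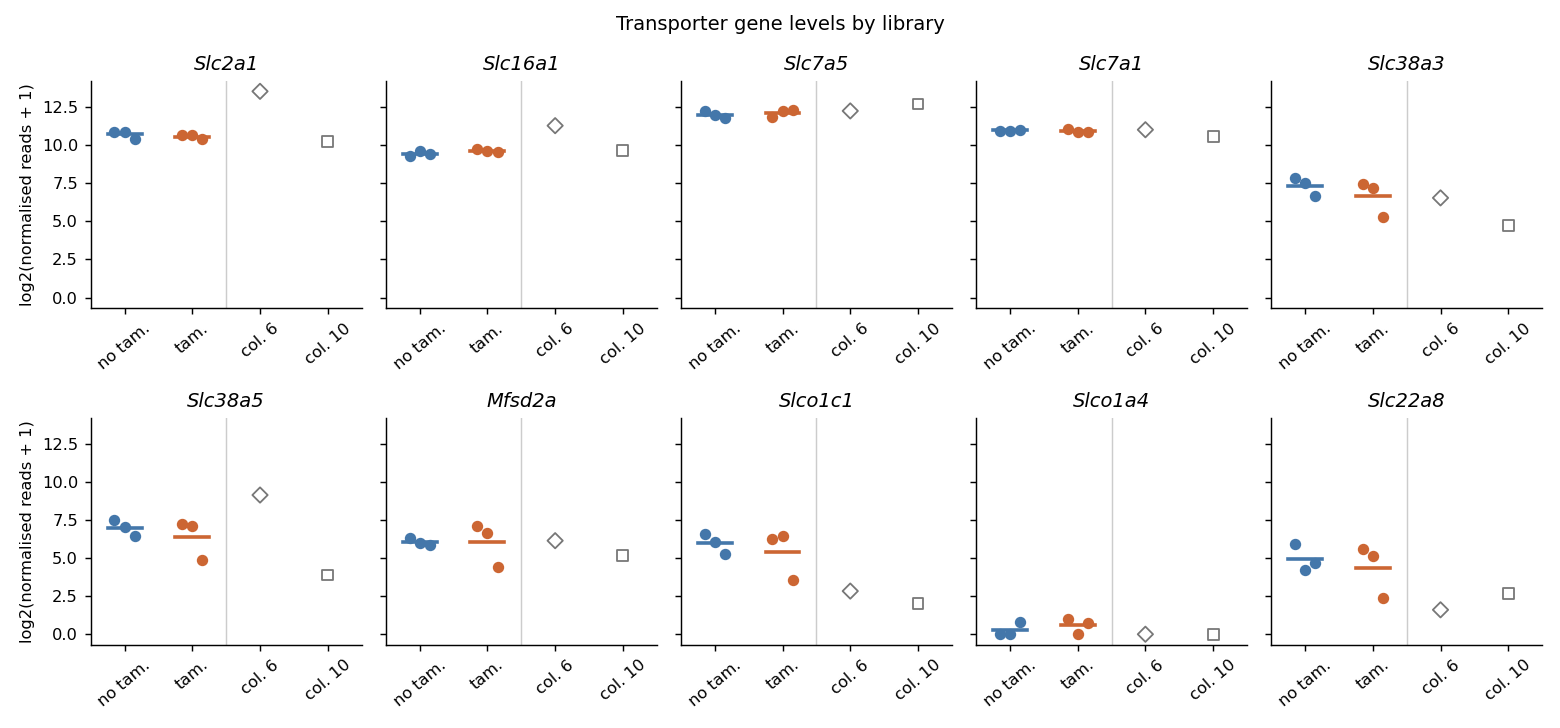
Log2(normalised reads + 1) of the 10 members in each library. Filled points are the 3 libraries per group with a bar at their mean, and open symbols are columns 6 and 10, which entered no main comparison. Slc2a1, Slc16a1, Slc7a5 and Slc7a1 are level across groups, while the lowest filled point of Slc38a3, Slc38a5, Mfsd2a, Slco1c1 and Slc22a8 is a tamoxifen library.

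The members fell into 2 kinds by their spread over libraries, a division made after the values were seen. Slc2a1, Slc16a1, Slc7a5 and Slc7a1 differed by 1.14 to 1.40 times between the highest and lowest of the 6 libraries. Slc38a3, Slc38a5, Mfsd2a, Slco1c1 and Slc22a8 differed by 6.14 to 13.8 times. Over all tested genes the median, with 1 added to each value, was 1.52, and 4.42% exceeded 6. The summed level of the 5 variable genes was 635, 452 and 306 normalised reads without tamoxifen and 574, 502 and 100.3 with it. That of the 4 even genes was 9214, 8559 and 7594 without it and 8120, 8984 and 8828 with it, so tamoxifen_3 was low in the first sum and not in the second. Pearson's r of log2 values was taken over the 6 libraries, which share a normalisation. The same libraries made the division, so r is no separate sign of 2 kinds. All 5 variable genes were lowest in tamoxifen_3, and r without that library was not computed. For the 10 pairs of variable genes r ran from 0.862 to 0.990. For the 6 pairs of even genes it ran from -0.843 to 0.122. Between the kinds the values were mixed: Slc2a1 correlated with the 5 variable genes at 0.496 to 0.818 and Slc7a1 at 0.392 to 0.588, whereas Slc7a5 did at -0.376 to -0.176 and Slc16a1 at -0.086 to 0.304.

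Endothelial markers moved with the variable genes. All 22 pan-endothelial markers were lowest in tamoxifen_3, and so were 17 of 20 brain endothelial markers and 7 of the 9 tested members, against 16.9% of all tested genes. The mean log2 level of the pan-endothelial list was 9.08 to 9.68 in the no-tamoxifen libraries. In the 3 tamoxifen libraries it was 9.82, 9.85 and, lowest, 8.50. For the brain list it was 7.03 to 7.69 in the former and 7.83, 7.82 and 6.27 in the latter. Macrophage markers were not low there: 10 of 11 were in the table, their sum was 42512 to 50343 normalised reads without tamoxifen and 32406 to 52237 with it, and tamoxifen_3 had the highest sum. No pan-endothelial, brain endothelial or macrophage marker passed the limma test. The part of the sorted cells' makeup in the members' values was not tested.

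**Figure D4:**
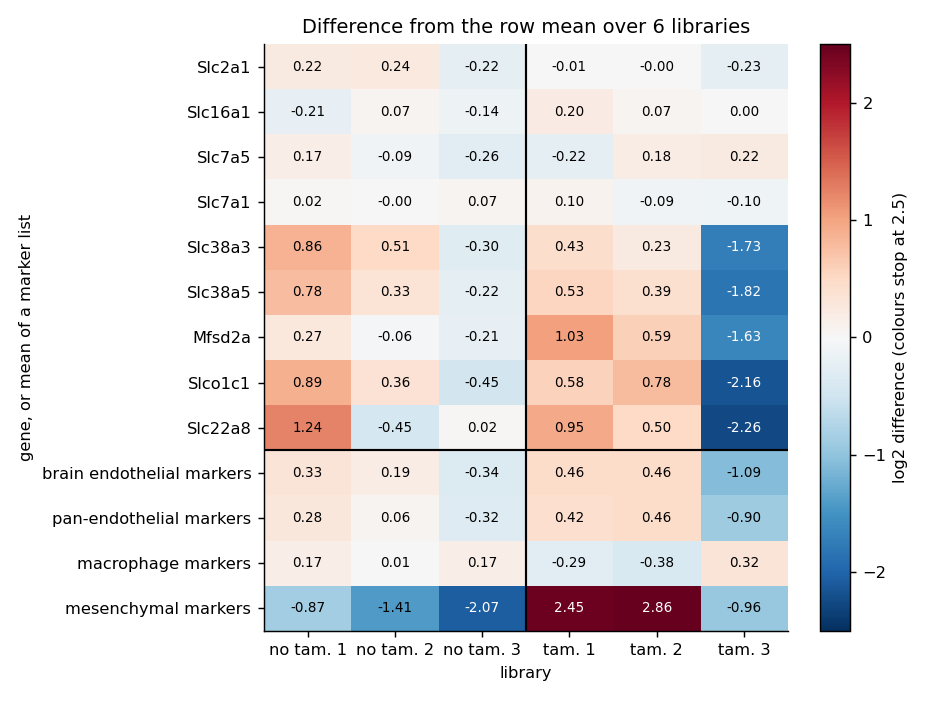
Log2 difference of each tested member, and of the mean of 4 marker lists, from its own mean over the 6 libraries. Rows are genes or lists and columns are libraries, with values printed in the cells. The 5 lower members and both endothelial lists are lowest in tamoxifen_3, and mesenchymal markers are highest in tamoxifen_1 and tamoxifen_2.

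Relative to the brain endothelial markers the variable genes came closer together between libraries, and the even genes moved apart. The subtracted mean was itself lowest in tamoxifen_3, at 6.27, so a gene low there tends to lose range and a level gene to gain it. These shifts are thus no separate sign of 2 kinds. On the log2 scale the range of Slc38a3 over the 6 libraries was 2.59 in normalised reads and 1.17 after the brain list's mean was subtracted in each library. For Mfsd2a it went from 2.66 to 1.11 and for Slco1c1 from 3.05 to 1.63. For Slc2a1 it went the other way, from 0.48 to 1.33, and for Slc7a5 from 0.48 to 2.00. Even on that scale tamoxifen_3 was the lowest library for each of the 5 variable genes, as for Slco1c1 at -2.75 against -1.80 to -1.11 in the other 5. It was the highest for the 4 even genes, as the subtraction alone gives for a level gene, with Slc2a1 at 4.12 against 2.80 to 3.38. With each library centred on these markers, or on the pan-endothelial ones, 0 members were called.

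**Figure D5:**
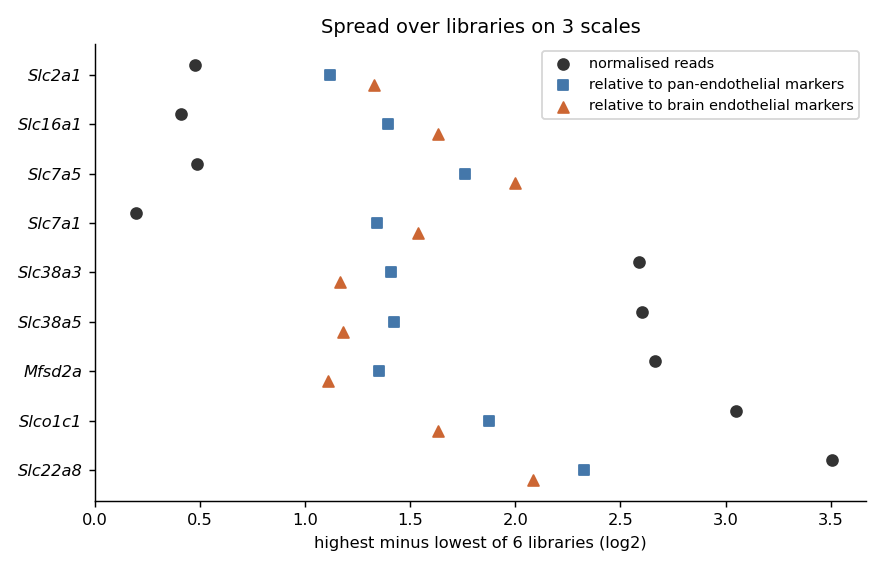
Highest minus lowest log2 value over the 6 libraries for each tested member on 3 scales: log2(normalised reads + 1), relative to the mean of pan-endothelial markers, and relative to the mean of brain endothelial markers. Circles lie left of the other symbols for the first 4 genes and right of them for the last 5.

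Genes with profiles most like a member's were sought among 10238 others with a mean of at least 50, by Pearson's r of log2 values over the 6 libraries. For Slco1c1 they were Reln (r = 0.999), She (0.998) and the neutral amino acid carrier gene Slc1a4 (0.998). For Mfsd2a they were Dock9 (0.994), Cxadr (0.992) and Sestd1 (0.989), and for Slc2a1 Xrn1 (0.993), Arfip1 (0.991) and Polr3gl (0.981). With so many genes and so few libraries high values are easily reached. Over 8 columns, with 6 and 10 added, r was still 0.978 for She with Slco1c1, but 0.560 for Reln and -0.460 for Polr3gl with Slc2a1.

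Other carriers of the barrier gave no call between groups either. Of 20 further nutrient carriers and receptors known in brain endothelium, 18 were tested, 0 passed in either direction, and the median log2 fold change was -0.15. The lowest p values were those of the zinc exporter gene Slc30a1, at -0.45 ± 0.14 (SE, limma adjusted p = 0.462), and of the iron exporter gene Slc40a1, at -0.31 ± 0.12 (limma adjusted p = 0.505). Slc30a1 was at 538 to 624 normalised reads without tamoxifen and 372 to 501 with it, so its groups did not overlap. The groups of Slc40a1 did not overlap either. These 2 of 18 genes compare with 13.9% of all tested genes, so the count is near the background.

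Relatives of the members in the same carrier families numbered 54, of which 34 were tested and 0 passed in either direction, with a median of -0.04. Slco4a1, another organic anion carrier gene, was at 65.9, 49.7 and 83.7 normalised reads without tamoxifen and 133, 127 and 136 with it, a log2 fold change of 1.01 ± 0.23 (SE, limma adjusted p = 0.370). Slc16a7, which encodes the monocarboxylate carrier MCT2, was at 259, 220 and 157 without it and 110, 93.1 and 136 with it, at -0.89 ± 0.23 (SE, limma adjusted p = 0.460). The groups of both did not overlap and both missed the threshold. Of the 34 relatives, 4 were higher and 3 lower without overlap of the groups, where 13.9% of all tested genes did not overlap. Without adjustment, 8 of 34 had a limma p under 0.05, where all genes gave 9.01%. In the amino acid response list, whose factor ATF4 is known to act on Slc7a5 and Slc7a1, 14 of 15 genes were tested and 0 passed, with 11 positive and a median of 0.13. The lowest p values there were those of Sesn2, at 0.65 ± 0.21 (SE, limma adjusted p = 0.475), and Vldlr, at 1.30 ± 0.61 (limma adjusted p = 0.573).

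Markers of epithelia that also use these carriers were mixed. Slc22a8 is known from kidney tubule and choroid plexus, and Slc22a6, a related carrier gene of the tubule, was at 0 to 1.52 normalised reads. The tubule gene Slc34a1 was at 0 to 1.52 as well, and the choroid plexus genes Folr1 and Otx2 were at 0 to 4.21 and 0 to 1.74. The choroid plexus list summed to 94.6 to 116 normalised reads without tamoxifen and 97.3 to 124 with it, mostly from Ttr. The kidney list summed to 118 to 149.9 and 147 to 157. Other markers on these lists were not near 0: the tubule genes Slc5a2 and Hnf4a were at 74.6 to 131 and 9.82 to 43.7, and the choroid plexus gene Kcnj13 at 16.4 to 31.2. The general epithelial gene Cdh1 was at 98.0 to 162. On the same list Krt18 was at 23.4 to 65.9 and Krt5 at 4.10 to 61.6. Krt8 was at 0.70 to 33.5 and Epcam at 3.47 to 27.7. The ranges of Slc5a2 and Cdh1 lay above that of Slc22a8 itself, at 4.21 to 58.1. Those of Krt18, Krt5, Krt8 and Epcam overlapped it. Their part in the Slc22a8 values was not tested.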

How the data were processed

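The authors deposited 1 table of normalised read counts, a signal unit, per gene symbol. Builds hg38 and mm10 and the tools DESeq2, STAR and HTSeq 0.11.2 are credited to the submitters' processing notes, and their roles are not given in the sources used here. All deposited values of the 8 columns used were whole multiples of 1 step per column, within 0.001 reads, so whole reads were recovered. The header has 9 fields and each line 10, and 1 value column was not used. The 10 members and all lists were chosen with earlier results of these data known.

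The 13480 genes averaging 10 or more normalised reads in the 6 compared columns entered limma 3.58.1 (R 4.3.3) as log2 of the value plus a pseudocount of 1, with a mean-variance trend and group as the only term, at a Benjamini-Hochberg adjusted p of 0.05. This scale understates changes of low genes. Alternatives were other pseudocounts and minimum means, a replicate block, edgeR 4.0.16 with TMM and DESeq2 1.42.0 on recovered reads, centring on markers, other header placements and leave-outs. Fits were checked on simulated counts with the same dispersion for all genes. No simulated library was unlike its group, so a case like tamoxifen_3 was not covered. All 10 members are named by rule, with the partners Slc3a2, Bsg and Emb and the 2 genes of lowest p in each pathway list without a call. Coordinates are 1-based on GRCm38 (mm10) from GENCODE M21. Libraries of a group differed beyond sampling noise (chi-square per degree of freedom of at least 7.51).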

Additional observations from a re-analysis of the deposited data

Results flagged for a closer look

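In the columns shown apart, some members exceeded the highest of the 3 no-tamoxifen libraries. Column 6 held 11713 normalised reads of Slc2a1, 6.24 times that highest value, 2461 of Slc16a1 (3.19 times) and 557 of Slc38a5 (3.18 times). It held 4809 of Slc7a5 and 2046 of Slc7a1, each barely above that group's highest. Slco1c1 and Slc22a8 were low there, with 3 and 1 reads. The placement of the header names decides whether column 6 is a library with or without tamoxifen. It had 45.7% of its reads in the ribosomal RNA precursor Rn45s against 29.4% to 38.7% in the 6 libraries. Col1a1 was at 233293 normalised reads, the erythroid enzyme gene Alas2 at 6715, and Cdh5 at 747. The part of these differences in the members' values was not tested.

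Column 10, which is a tamoxifen library or has no name, held 6582 normalised reads of Slc7a5, 1.38 times the highest no-tamoxifen value, and 781 of Slc16a1, 1.01 times. Of the other members, 5 were lower there than in all 6 libraries: Slc2a1 at 1200 normalised reads, Slc7a1 at 1489, Slc38a3 at 25.2, Slc38a5 at 13.8 and Slco1c1 on 5 reads, beside 1097 normalised reads of Cdh5.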

How the results depend on the processing

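No member was called higher or lower under any of the 18 alternatives. The count over all genes, 6 higher and 0 lower, became 20 and 1 with the replicate block, 247 and 28 in DESeq2, 171 and 160 higher with libraries centred on pan-endothelial or brain endothelial markers, and 0 higher with column 6 read as a tamoxifen library (names on the first 8 columns). Centring on brain endothelial markers moved the median of all genes from -0.02 to 0.09. With column 10 added 1 was lower. Leave-outs gave 2 to 973 higher and 0 to 469 lower. Same-numbered libraries' deviations correlated at 0.195, 0.0364 and 0.345, and no_tamoxifen_1 correlated best with tamoxifen_2. Deviations from a mean of 3 libraries are tied to each other, so these values cannot decide whether same-numbered libraries were paired. With the replicate block the SE of Slc38a3 went from 0.55 to 0.25, with a limma unadjusted p of 0.0212 and an adjusted p of 0.347.

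With the names over the first 8 columns Slc2a1 turned to 0.58, Slc38a5 to 0.087 and Mfsd2a to 0.016. With the names over the last 8 Slc16a1 turned to -0.28. Centred on brain endothelial markers Slc7a1 turned to 0.055 and Mfsd2a to 0.11. Mfsd2a was 0.024 at a pseudocount of 5, 0.39 in edgeR, 0.38 in DESeq2 and 0.0089 centred on pan-endothelial markers. Leave-outs ranged from -1.01 to 0.16 for Slc38a5, -0.52 to 0.81 for Mfsd2a, -1.055 to 0.42 for Slco1c1 and -1.155 to 0.45 for Slc22a8, each highest without tamoxifen_3. Mfsd2a was also positive without no_tamoxifen_1 (0.13). Without a change of sign, Slc38a5, Slco1c1 and Slc22a8 (-0.60, -0.53 and -0.55) went to -0.30, -0.13 and -0.20 in edgeR, to -0.31, -0.15 and -0.20 in DESeq2 and to -1.22, -1.39 and -0.97 with column 10. Names over the last 8 columns gave -1.76 for Slc38a5, -0.14 for Slc22a8 and -0.94 for Slc2a1, and over the first 8 -1.18 for Slco1c1, -1.24 for Slc22a8 and 0.60 for Slc16a1. Slc38a3 went from -0.71 to -1.19 with column 10. The cause was not tested. Slc22a8 was not tested at a minimum mean of 50, nor Slco1a4 in any setting. Few reads limit both.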
